A study of Amia calva with 36 samples.

Results

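The wall of the dorsal foregut was compared between its layers at the stage at which the gas bladder of the bowfin (Amia calva) buds. The comparison set 3 libraries of dorsal endoderm against 3 libraries of dorsal mesoderm at Ballard stage 25, which are 6 of the 36 libraries of the series, chosen by their labels alone. The other libraries hold the same layers at stages 24 and 27 and on the ventral side. Embryos were wild fish, taken as eggs from lake nests and reared at 12.8 °C, and the labels state no treatment or genetic change. Endoderm and mesoderm were cut by laser from 15 µm transverse sections along the bud, and the RNA was amplified before sequencing. Which embryos went into which library is not stated, and regions of both layers were cut from the same sections. The p-values therefore cover only variation among captures, part of which may be technical. Those of the main limma fit take their spread from 23 libraries of stages 24 and 25. That spread is shared over genes of like level and is not a gene's own spread among the 6 libraries. In such bulk captures, fewer cells that use a gene and less RNA of it per cell cannot be told apart.

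The foregut endoderm is the epithelium that lines the gut tube, and it gives rise to the inner lining of the air-filled organ. The mesoderm around it forms the connective tissue, muscle and vessels of the wall. The layers signal to each other during budding: in the mouse lung, the endoderm makes Shh, and the mesoderm makes Fgf10 and Wnt2. The deposited table names genes by bowfin identifiers (AMCG) and, for some, by an Ensembl identifier of spotted gar (ENSLOCG). Gene names are not part of the table. No reference that pairs these identifiers with names was used, so no signal, pathway or cell type marker was looked up. The labelled layers were instead checked with genes chosen on the other libraries of the series.

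The 6 libraries held 827270 to 1587300 reads assigned to genes. After thinning to 827270 reads each, the endoderm libraries held reads of 4879, 3392 and 4064 genes and the mesoderm libraries of 3949, 5191 and 3653 genes. The means of 4112 ± 745 and 4264 ± 816 (SD, n = 3) differed by less than the spread between libraries (two-sided exact permutation p = 0.8, where 3 against 3 libraries cannot go below 0.1; adjusted p = 0.8 over 2 tests). The 50 most abundant genes of a library took 41%, 39.5% and 32.4% of the endoderm reads and 32.4%, 34.4% and 38% of the mesoderm reads (exact permutation p = 0.4, adjusted p = 0.8). AMCG00006382, which has no gar identifier, was the most abundant gene, with 10% to 17% of the reads of each library.

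Of 21948 genes, 12177 had no read in any of the 6 libraries, 9771 had a read in at least 1, and 879 had a read in all 6. A further 3337 genes were read in 1 library alone, and 1450 of these reached over 20 CPM (counts per 1000000 reads) there. Reads of 71 genes were found in all 3 endoderm and no mesoderm library, with a median level of 91.3 CPM in endoderm. Reads of 107 genes were found in all 3 mesoderm and no endoderm library, with a median of 64.5 CPM in mesoderm. Another 597 genes were read in 2 endoderm libraries and 1 mesoderm library, and 707 in 1 endoderm library and 2 mesoderm libraries. Some genes read in 3 of 6 libraries fall in 1 layer without a layer difference. The counts of 71 and 107 are therefore not by themselves a layer result. Across the 3929 tested genes, log2 levels correlated with r of 0.24 to 0.29 between libraries of the same layer and 0.14 to 0.26 between layers, given as a description over genes that share these libraries.

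**Figure D1:**
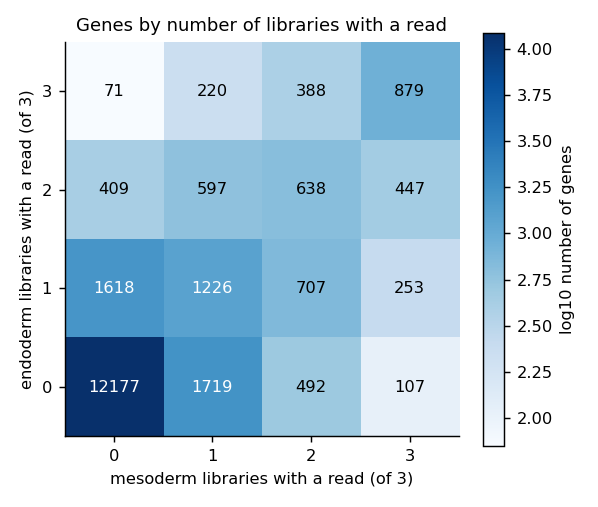
Number of genes by how many of the 3 stage 25 dorsal endoderm libraries (vertical axis) and how many of the 3 dorsal mesoderm libraries (horizontal axis) held a read; the colour is the log10 of the number. The corners of genes read in all 3 libraries of 1 layer alone hold 71 and 107 genes. The other cells of genes read in 3 libraries hold 597 and 707, and 879 genes were read in all 6 libraries.

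The ventral wall at the same stage, which shares no library with this comparison, gave a first look at whether genes seen in 1 layer dorsally did so there. Of the 71 genes read in all 3 endoderm libraries and in none of mesoderm, 41 (57.7%) were read in more ventral endoderm than ventral mesoderm libraries, 13 (18.3%) in more mesoderm libraries and 17 in equal numbers. Over all tested genes these shares were 35.5% and 20.8%. Of the 107 genes of the opposite pattern, 33 (30.8%) were read in more ventral mesoderm libraries, 32 (29.9%) in more ventral endoderm libraries and 42 in equal numbers. The ventral wall held 108 genes read in all 3 endoderm libraries and in no mesoderm library, of which 6 were among the dorsal 71 (5.56% of the ventral and 8.45% of the dorsal list, where the 71 are 0.323% of all genes). It held 45 genes of the opposite pattern, and 0 of them were among the dorsal 107, which are 0.488% of all genes, so a count of 0 among 45 is not a result about these genes. The shares of all genes include 12177 genes without a read in the 6 libraries, which could be in neither dorsal list. The difference between these lists was not tested.

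Each gene was then tested for a difference between the layers. Genes with over 1 CPM in at least 3 of the 6 libraries were tested, 3929 in all, of which 2520 (64.1%) had a gar identifier. With limma on the deposited log2 CPM values, 0 genes passed an adjusted p of 0.05 (0% of those tested), and the smallest adjusted p was 0.0598. When the 6 libraries alone were fitted, the smallest limma adjusted p was 0.751. An unadjusted p under 0.05 was found for 359 genes (9.14%), 144 higher in endoderm (3.67%) and 215 higher in mesoderm (5.47%). A fraction of 0.05 of the tested genes is expected at that p without any layer difference. With the 6 libraries alone fitted, 218 genes had such a p, and with all 36 libraries giving the spread more than 359 did. The count of 359 thus depends on which libraries give the spread. Whether it exceeds the expected fraction was not tested, so it is not by itself a result. The 3 libraries of one layer lay above the 3 of the other for 185 genes in favour of endoderm (4.71%) and 299 in favour of mesoderm (7.61%). Such a separation has an exact permutation p of 0.1 over both directions, so many genes show it without a layer difference. Whether these counts exceed that was not tested. The median log2 difference over all tested genes was -0.27, endoderm minus mesoderm. The median standard error was 2.27 on the log2 scale, so the 95% interval of a typical gene reached 4.45 to either side.

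Limma voom, which weights recovered reads by their mean level, passed 115 of the same genes at an adjusted p of 0.05 (2.93%), 53 higher in endoderm (1.35%) and 62 higher in mesoderm (1.58%). Of these, 114 had an unadjusted p under 0.05 in limma, and 74 had a gar identifier. The 53 endoderm-higher genes had a median of 288 CPM in endoderm, and 25 of them had no read in any mesoderm library. The 62 mesoderm-higher genes had a median of 200.1 CPM in mesoderm, and 33 of them had no read in any endoderm library. A gene without a read in 1 layer passed the filter only through all 3 libraries of the other, which fixed its separation. The counts of 25 and 33 are thus not support for a layer difference. At most 71 tested genes had no mesoderm read, and at most 107 had no endoderm read. The voom count was 27 with the 12 libraries of stage 25 alone, 35 with the 6 libraries alone, 217 with 35 libraries of all stages and 188 without endoderm replicate 1. Limma on the deposited values passed 7 genes when all 36 libraries gave the spread, 9 after quantile normalization, and 5 and 1 without mesoderm replicates 2 and 3.

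**Figure D2:**
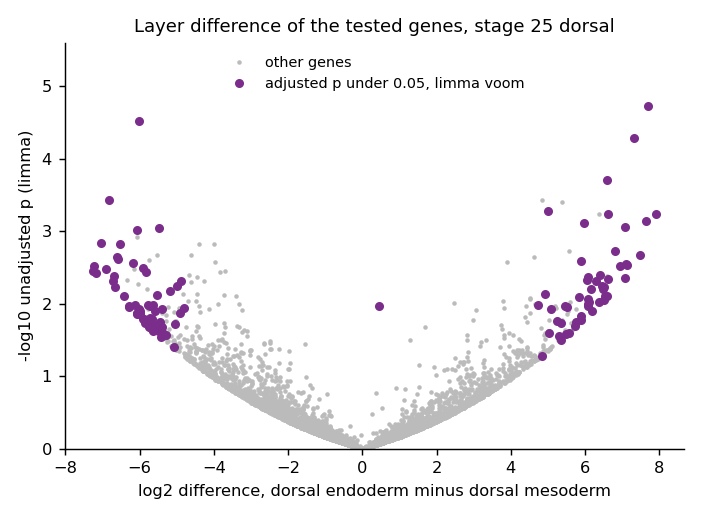
Log2 difference between stage 25 dorsal endoderm and dorsal mesoderm (horizontal axis, positive where endoderm is higher) against -log10 of the unadjusted limma p (vertical axis) for each of the 3929 tested genes. The 115 purple points passed an adjusted p of 0.05 with limma voom, 53 on the endoderm and 62 on the mesoderm side, and none of the points passed with limma.

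The genes named here are, among those with a gar identifier whose layers did not overlap, the pair with the smallest p in each direction. None passed the limma threshold. AMCG00001150 (ENSLOCG00000009232) stood at 484, 2235 and 1569.9 CPM in endoderm replicates 1, 2 and 3 and at 0, 121 and 0 CPM in mesoderm. All 3 endoderm libraries lay above all 3 mesoderm libraries, and mesoderm reads came from replicate 2 alone. The log2 difference was 7.33 (SE 1.81, limma adjusted p = 0.0683). Over 25 alternatives to that fit the adjusted p ran from 0.0153 to 0.751, and limma voom, which is one of them, gave 9.02 and 0.0243. It was higher in endoderm in the mean of the other libraries too (log2 difference 3.46, SE 0.79, limma adjusted p = 0.0119), with 1300.2 ± 184 CPM in dorsal endoderm and 89.5 ± 49.9 CPM in dorsal mesoderm at stage 27 (SD, n = 3). In ventral mesoderm at stage 25 it averaged 2180.3 ± 3714 CPM, against 1397 ± 1041 CPM in ventral endoderm, and replicate 3 alone, at 6469 CPM, held most of the ventral mesoderm level.

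AMCG00008252 (ENSLOCG00000003099) stood at 506, 1018 and 1939 CPM in endoderm and at 0.63, 33.7 and 158 CPM in mesoderm, so it was read in all 6 libraries and the layers did not overlap. The log2 difference was 5.38 (SE 1.52, limma adjusted p = 0.209, and 0.0613 to 0.831 over 25 alternatives). Limma voom, 1 of these, gave 5.98 and an adjusted p of 0.211, so the gene did not pass there either. In the mean over the other pairs the log2 difference was 0.46 (SE 0.69, limma adjusted p = 0.809), a mean over pairs of either sign. Stage 27 held 488 ± 139 CPM in dorsal endoderm and 382 ± 166 CPM in dorsal mesoderm. The ventral side at stage 25 held 533 ± 317 CPM in endoderm and 1349 ± 1615 CPM in mesoderm. The level in stage 25 dorsal mesoderm, 64.2 ± 83.1 CPM, was the lowest mean of the 12 groups for this gene. That level is part of the difference that chose the gene, so its rank is not independent of the choice.

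AMCG00006920 (ENSLOCG00000016590) had no read in any dorsal endoderm library and stood at 638, 165 and 14.1 CPM in mesoderm replicates 1, 2 and 3. The mesoderm libraries differed widely among themselves, and each lay above the endoderm libraries. Without an endoderm read the gene passed the filter through mesoderm alone, which fixed this separation. Its mean was at least 294-fold higher in mesoderm, with 3 counts in all endoderm reads together taken as the floor, and at least 96.6-fold without mesoderm replicate 1. The log2 difference, between means of the deposited log2 values, was -6.02 (SE 1.44, limma adjusted p = 0.0598), and -8.07 to -4.68 over 25 alternatives. It is not on the scale of the fold. Its size depends on the value given to a gene without a read. The adjusted p of the 25 alternatives ran from 0.00174, that of limma voom (log2 difference -8.07), to 0.751. No read was found in ventral endoderm or ventral mesoderm at stage 25, nor in dorsal mesoderm at stage 24. These absences entered, through the spread, the p that chose this gene. With the 12 libraries of stage 25 alone its limma adjusted p was 0.432. Stage 27 levels were 11.5 ± 12.3 CPM in dorsal mesoderm and 10.9 ± 11.2 CPM in dorsal endoderm.

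AMCG00003686 (ENSLOCG00000016021) had no read in dorsal endoderm either and stood at 661, 68.1 and 191 CPM in mesoderm. Its mean was at least 330.2-fold higher in mesoderm against the same floor, and at least 139-fold without mesoderm replicate 1, the highest library. The log2 difference was -6.82 (SE 1.91, limma adjusted p = 0.209), and -8.83 to -5.39 over 25 alternatives. It too is not on the scale of the fold and depends on the value given to a gene without a read. Alternatives to this fit, 25 in all, gave an adjusted p from 4.7e-04, with limma voom (log2 difference -8.83), to 0.751. It averaged 3.19 ± 4.26 CPM in ventral mesoderm at stage 25 and 82.4 ± 61.2 CPM in dorsal mesoderm at stage 27, where dorsal endoderm held 48.9 ± 23.9 CPM.

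AMCG00020949 had the smallest p of all tested genes but carries no gar identifier, and it was chosen after its values were seen. It stood at 371, 439 and 337 CPM in the endoderm libraries and had no read in mesoderm, at least 523-fold higher in endoderm with 3 counts in all mesoderm reads as the floor. The 3 endoderm libraries lay close to each other. They stood apart from mesoderm, which the filter fixed for a gene without a mesoderm read. The log2 difference was 7.70 (SE 1.80, limma adjusted p = 0.0598), and 6.27 to 10.03 over 25 alternatives. It is not on the scale of the fold. Its size depends on the value given to a gene without a read, at 8.57 with a pseudocount of 1 CPM and 6.27 with 5 CPM. Its adjusted p over the 25 alternatives lay between 5.26e-05, with limma voom (log2 difference 10.03), and 0.751. Stage 25 ventral endoderm held no read, and in ventral mesoderm 1 of 3 libraries held reads (mean 49.7 ± 86.1 CPM). Levels in the other groups of stages 24 and 25 entered, through the spread, the p that picked out this gene. With the 12 libraries of stage 25 alone its limma adjusted p was 0.432. Dorsal endoderm levels were 1.69 ± 2.92 CPM before budding, at stage 24, and 199 ± 188 CPM at stage 27, where dorsal mesoderm held 79.7 ± 45.7 CPM and the layers overlapped. In the mean over the other pairs the layers differed by -0.21 on the log2 scale (SE 0.67, limma adjusted p = 0.923).

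**Figure D3:**
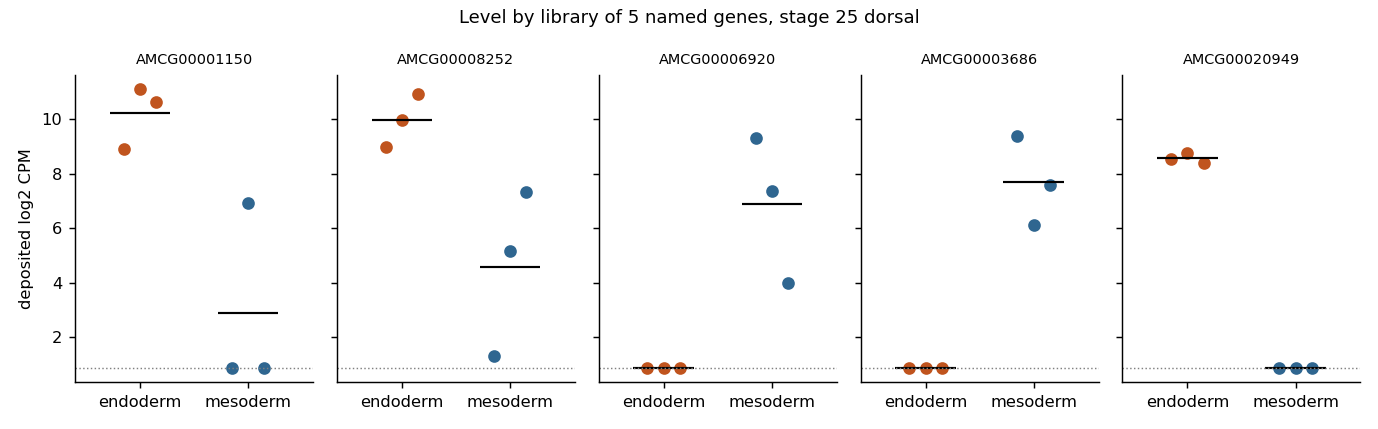
Deposited log2 CPM (vertical axis) of 5 genes in the 3 stage 25 dorsal endoderm libraries (orange) and the 3 dorsal mesoderm libraries (blue), in the order of replicates 1, 2 and 3; black lines are means and the dotted line is the value of a gene without a read. AMCG00006920 and AMCG00003686 sit on the dotted line in all endoderm libraries and AMCG00020949 in all mesoderm libraries.

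To check the labelled layers, genes that differ between endoderm and mesoderm were chosen on the 29 other libraries, leaving out 1 library of 3040 reads. This choice was made after the results above were seen, and it used none of the 6 libraries. With limma, 163 of 14019 genes were higher in endoderm (1.16%) and 312 higher in mesoderm (2.23%) in the mean over the 5 other pairs of groups. In the 6 libraries, the 163 endoderm genes made up 1.08%, 2.31% and 2.2% of dorsal endoderm reads and 0.324%, 0.187% and 0.476% of dorsal mesoderm reads. The layers did not overlap, at 1.86% ± 0.683 and 0.329% ± 0.145 (SD, n = 3). The 312 mesoderm genes took 2.52%, 1.05% and 2.18% of the endoderm reads and 4.87%, 5.23% and 3.47% of the mesoderm reads, again without overlap (1.92% ± 0.769 and 4.52% ± 0.932). Endoderm replicate 1 thus had the lowest share of endoderm genes and the highest share of mesoderm genes of its group.

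**Figure D4:**
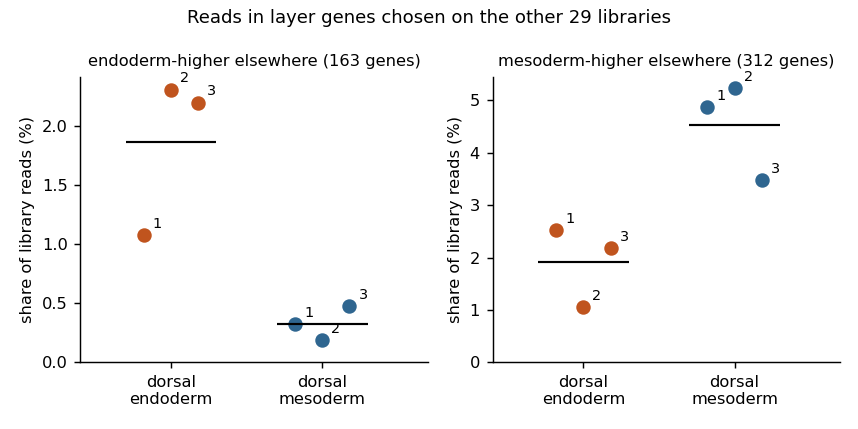
Share of the reads of each library (vertical axis, percent) in 163 genes higher in endoderm (left) and 312 genes higher in mesoderm (right) in the other 29 libraries; points are the stage 25 dorsal libraries, numbered by replicate, and lines are means. Endoderm libraries lie above mesoderm libraries on the left and below them on the right.

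Most single genes of these lists had the same sign as their sums. Of the 163 endoderm genes, 119 had a read in the 6 libraries, and 100 of these (84%) had a higher mean log2 value in endoderm, against 46.8% of all 9771 genes with a read. Their median log2 difference was 2.00, beside -0.17 over all genes with a read. Of the 312 mesoderm genes, 226 had a read, and 177 (78.3%) were higher in mesoderm, against 53.2% of all genes with a read, with a median log2 difference of -1.45. The groups stood apart in favour of endoderm for 24 of the 163 genes and in favour of mesoderm for 24 of the 312, and in the opposite direction for 0 of either list. Over the whole table they stood apart for 0.898% of genes in favour of endoderm and 1.45% in favour of mesoderm. That base includes 12177 genes without a read in the 6 libraries. Of the 53 endoderm-higher genes of limma voom, 11 (20.8%) were among the 163 (6.75% of that list) and 0 among the 312. Of the 62 mesoderm-higher genes, 9 (14.5%) were among the 312 (2.88% of that list) and 0 among the 163. Over the whole table, limma voom called 0.241% of genes higher in endoderm and 0.282% higher in mesoderm. Only tested genes could be called, 43 of the 163 and 111 of the 312. Over all tested genes the called shares were 1.35% for endoderm and 1.58% for mesoderm. The fit behind the voom calls also held libraries outside the 6, and those libraries helped to choose the lists. Through the spread they entered the p of each call, so the overlaps between calls and lists are not independent of that choice. The part of this in the overlaps was not tested.

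The pair of genes with the largest difference in each direction in the other libraries, among those with a gar identifier, were read as follows. AMCG00003274 (ENSLOCG00000012022), higher in endoderm elsewhere by 5.15 on the log2 scale (SE 0.78), stood at 127, 249 and 265 CPM in dorsal endoderm and at 0, 0 and 1.66 CPM in dorsal mesoderm. The layers did not overlap (log2 difference 6.49, SE 2.38, limma adjusted p = 0.36). Limma voom gave 8.31 and an adjusted p of 0.00267. AMCG00012991 (ENSLOCG00000011516), higher in endoderm elsewhere by 5.02 (SE 0.74), stood at 9.67, 4.27 and 147 CPM in dorsal endoderm and had no read in dorsal mesoderm. It too kept the layers apart, with most of its reads in replicate 3 (log2 difference 3.58, SE 2.49, limma adjusted p = 0.721). For this gene limma voom gave 5.66 and an adjusted p of 0.193.

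AMCG00017661 (ENSLOCG00000010614), which differed elsewhere by -5.15 (SE 0.76), stood at 35.1, 0.712 and 0 CPM in dorsal endoderm and at 1403, 771 and 364 CPM in dorsal mesoderm. The layers did not overlap (log2 difference -7.05, SE 2.21, limma adjusted p = 0.282). Limma voom gave -7.99 and an adjusted p of 0.00964. AMCG00020466 (ENSLOCG00000005226), which differed elsewhere by -4.92 (SE 0.61), stood at 719, 147 and 56 CPM in dorsal endoderm and at 611, 1112 and 436 CPM in dorsal mesoderm. Here the layers overlapped, since endoderm replicate 1 lay above mesoderm replicates 1 and 3 (log2 difference -1.86, SE 1.75, limma adjusted p = 0.807). For this gene limma voom gave -1.97 and an adjusted p of 0.629. In ventral endoderm at stage 25 the same gene averaged 5.89 ± 10.2 CPM, and 711 ± 610.1 CPM in ventral mesoderm. The endoderm replicate 1 library held reads of 118 of the 312 mesoderm genes, replicates 2 and 3 held 64 and 91, and the mesoderm libraries held 115 to 167. Endoderm replicate 1 also held reads of more genes of any kind, 4879 against 3634 and 4147 in replicates 2 and 3. The part of reads from the neighbouring layer in any result was not tested.

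The direction of the layer difference was followed in the 5 other pairs of groups, whose libraries do not enter the log2 difference itself. The fitted libraries of stages 24 and 25 did enter, through the spread, the p that chose the 359 genes and the 115 voom genes. The stage 27 libraries did not enter that p. Of the 359 genes with an unadjusted p under 0.05, all were read in the dorsal layers at stage 27, and 267 (74.4%) had the same sign there, against 58.1% of all tested genes. In the ventral layers at stage 27 the shares were 70.8% and 57.4%. At stage 25 on the ventral side 195 of the 334 genes with a read (58.4%) had the same sign, against 53.6% of all tested genes. At stage 24 the shares were 61% and 55.4% dorsally and 58.1% and 51.6% ventrally, without the library of 3040 reads. By layer, 114 of 144 endoderm-higher and 153 of 215 mesoderm-higher genes had the same sign dorsally at stage 27, against 1173 of 1778 and 1108 of 2151 over all tested genes. In the dorsal layers at stage 24 the counts were 71 of 143 and 142 of 206, against 690 of 1769 and 1469 of 2125. In the ventral layers at stage 25 they were 92 of 139 and 103 of 195, against 1029 of 1733 and 1010 of 2072. The 115 voom genes gave 71.3% and 74.8% in the dorsal and ventral layers at stage 27, 65.5% in the ventral layers at stage 25, and 58.8% and 54.1% at stage 24. Stage 27 libraries hold reads of more genes, 8511 to 13512 per library against 2616 to 5780 at stage 25, and the part of this in the shares was not tested.

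**Figure D5:**
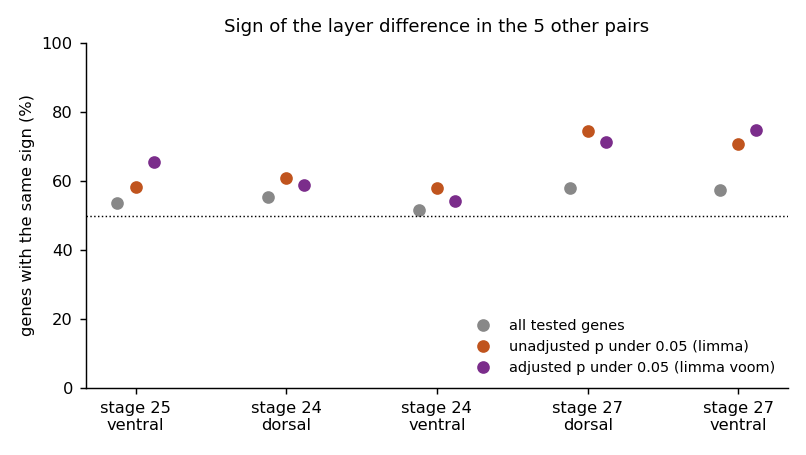
Percent of genes with the same sign of the endoderm to mesoderm difference as in the stage 25 dorsal layers (vertical axis), in each of the 5 other pairs of groups, for all tested genes (grey), the 359 genes with an unadjusted limma p under 0.05 (orange) and the 115 limma voom genes (purple); the dotted line marks 50%. The largest shares are those of stage 27, at 74.4% and 70.8% for the 359 genes.

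Whether the layer difference was itself different on the dorsal side, or at budding, was tested as an interaction. Between the dorsal and ventral sides at stage 25, limma passed 0 of 3929 genes (0%), with 228 at an unadjusted p under 0.05 and the lowest adjusted p at 0.452. Limma voom passed 1 gene (343 with an unadjusted p under 0.05), AMCG00020949, with a log2 interaction of 12.74 (SE 2.46, adjusted p = 0.0307). Limma gave this gene 9.82 (SE 2.55, adjusted p = 0.452). Its dorsal difference, which had the smallest p of all tested genes, is part of the interaction. Ventral mesoderm replicate 2, at 149 CPM, adds to it. Between stages 25 and 24 on the dorsal side, limma passed 0 genes (0%), with 167 at an unadjusted p under 0.05 and the lowest adjusted p at 0.997. Limma voom passed 0 as well, with 224 and 0.117 for the same measures. The counts at an unadjusted p under 0.05 are out of 3929 tested genes. A fraction of 0.05 of these is expected at that p without any interaction. Whether the counts exceed it was not tested, so they are not by themselves a result. The median standard error of both interactions was 3.21 on the log2 scale, wider than for the layer difference. The 4 genes named by the rule had interactions with side of 4.63 (SE 2.56) for AMCG00001150, 3.91 (SE 2.15) for AMCG00008252, -6.02 (SE 2.04) for AMCG00006920 and -6.31 (SE 2.71) for AMCG00003686. None passed (limma adjusted p = 0.857 to 0.889), and their sign is not independent of the dorsal difference that chose these genes.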

How the data were processed

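The authors deposited log2 CPM values for 21948 genes in 36 libraries, 11428 genes with a gar identifier. The authors' tools, per the submitters' processing notes, were Trimmomatic 0.38, STAR 2.6, R 3.6.0 and edgeR, the last without a version. The genome build, annotation and read counter are not given in the sources used here. Reads were recovered from the deposited values, whose smallest, 0.875, is that of a prior count of 2. Of values under 200 reads, 100% came out whole to within 0.02, and log2 values rebuilt from them missed the originals by 5.0e-09 or less. Library totals were 3040 to 1998280 reads, with no identical pair. The CPM printed are recovered reads per 1000000 of a library's total. Folds against a floor use mean CPM, while limma log2 differences are between means of log2 values that include the prior count. The folds and the log2 differences are therefore not on the same scale. Floors are 3 counts over the reads of a group. They cover counting error alone, since amplification copies molecules.

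The deposited values were fitted with limma 3.58.1 (variance trend) in R 4.3.3, giving each of 8 groups of stages 24 and 25 its own mean over 23 libraries, leaving out stage 24 ventral endoderm replicate 3 with 3040 reads. Stage 27 was left out because its libraries detect more genes; the fit over all 36 is an alternative. Benjamini-Hochberg adjustment ran over all tested genes. The prior degrees of freedom were estimated as infinite, so each gene took the spread that the trend gives at its level. Limma voom on the recovered reads served as the count-based alternative, the deposited unit being log2. Fits were also run on simulated data, whose outcome is not given here and decides nothing between limma and limma voom. The 19 gene lists by symbol matched 0 identifiers, so no list by function was described. Named genes are, in each direction, the called genes with a gar identifier and no overlap between layers that have the largest log2 difference, filled by unadjusted p where fewer than 2 were called. Comparisons, lists and alternatives were chosen with earlier results of these data known.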

Additional observations from a re-analysis of the deposited data

How the results depend on the processing

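With limma on the deposited values the layer count of 0 became 7 with all 36 libraries giving the spread, 2 with the library of 3040 reads kept, 2 with a pseudocount of 5 CPM, 9 with quantile normalization and 115 with limma voom, and leaving out single libraries or replicate numbers gave 0 to 5. It was 0 in 18 of the 25 alternative settings, which were chosen with earlier results of these data known. Among the 18 were the 12 libraries of stage 25, the 6 libraries alone, the 3 other settings of the filter on low values, median centring and library quality weights. The count for layer by side became 1 with limma voom, and that for layer by stage became 2 with genes over 1 CPM in 3 of all 36 libraries; leaving out replicates gave 0 for both. The cause was not tested. The voom count of 115 was 27 with the libraries of stage 25, 35 with the 6 libraries, 217 with 35 libraries of all stages and 102 to 188 without single libraries, and 67 to 96 of the 115 were called again when a library was left out. These voom settings and the layer gene lists were chosen after the data were seen. Quantile normalization moved the median log2 difference of all tested genes from -0.27 to -0.02 and median centring to -0.08.

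The difference in genes read at equal depth, -153, ran from -536 to 311 without single libraries, turning positive without endoderm replicate 2 (207) and without mesoderm replicate 2 (311), and that of the 50 most abundant genes from 1.02 to 5.34 percentage points around 2.71. The difference in the share of endoderm genes, 1.53 percentage points, was 0.667 with genes at an adjusted p under 0.01, 4.12 with genes chosen on stage 27 only and 1.31 to 1.93 without single libraries. For mesoderm genes, -2.6, it was -1.55, -5.93 and -3.13 to -2.17 in the same order. The layers stood apart in each of these lists.

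Replicate numbers showed no clear pairing of the libraries. Deviations of same-numbered endoderm and mesoderm libraries correlated at 0.05, 0.01 and 0.02 for numbers 1, 2 and 3. Endoderm replicates 1 and 2 but not 3 correlated best with their own number. With 3 libraries per layer these values cannot decide whether the libraries are paired. With a fixed replicate block limma passed 0 genes (smallest adjusted p 0.05, just above the threshold before rounding), with a random replicate block 0, and limma voom with a fixed replicate block passed 125.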
